A study of Mus musculus with 26 samples.

Results

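The mesenteric arteries of mice that lacked sphingosine kinase 1 in smooth muscle and received angiotensin II (AngII) were compared with those of sham mice that kept the gene. The comparison takes 9 of the 26 RNA libraries of the study, namely all 5 mesenteric libraries labelled as hypertensive with the smooth muscle deletion and all 4 labelled as normotensive with floxed alleles and no deletion. All mice were of a C57BL6J background and carried floxed Sphk1 alleles, and the infused mice were male. Deleted mice (KO AngII, n = 5) were Sphk1f/f Tagln-cre+ and received 490 ng/kg/min of AngII for 14 days from an osmotic minipump implanted at 12 to 14 weeks of age. Cre was driven by the promoter of Tagln (SM22α), a smooth muscle gene. Which cells of the vessel wall lost or kept Sphk1 was not tested. A further mesenteric group, WT AngII (n = 4), was Sphk1f/f Tagln-cre-, had the same infusion and shared the model. Control mice (WT sham, n = 4) were Sphk1f/f Tagln-cre- without AngII. The groups compared differ in the infusion, in the deletion and in carrying Cre, and the deletion cannot be told apart from Cre itself. Since no sham mice with the deletion were analysed here, the effects of infusion and deletion cannot be told apart in this contrast. Genes were also set against the same contrast in the aorta (5 and 4 libraries).

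Sphingosine kinases make sphingosine-1-phosphate (S1P) from sphingosine. S1P acts inside cells and, once exported, on the S1pr receptors of endothelium and smooth muscle. AngII is a peptide hormone that constricts arteries through the Agtr1 receptors, and prolonged infusion raises blood pressure and thickens the arterial wall. Mesenteric arteries are small muscular vessels that take part in setting peripheral resistance. Their remodelling under hypertension is known to involve smooth muscle growth, deposition of matrix and changes of contractile genes.

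Libraries held 21931751 to 30050073 assigned counts in KO AngII and 20185238 to 28526435 in WT sham mesenteric arteries. The defining smooth muscle genes Acta2, Myh11 and Tagln were at 4754 to 14228 CPM (counts per gene scaled to the size of the library) in every library of both groups. Records in the not-aligned line made up 11.4, 14.7 and 14.2% of KO AngII replicates 2, 3 and 4 and 1.40 and 1.10% of replicates 1 and 5, against 0.894 to 2.52% in WT sham. KO AngII replicate 3 stood farthest from the others on the first principal component. Marker lists of other cell types also varied between libraries. The B lymphocyte and plasma cell markers, given as the mean log2 CPM of the list, were at 4.18, 1.93, 6.80, 0.918 and 3.45 in KO AngII replicates 1 to 5, against 0.736 to 1.69 in WT sham. T lymphocyte markers ranged over 0.228 to 4.49 in KO AngII and −0.363 to 0.713 in WT sham. Macrophage markers were at 3.93 to 6.71 in KO AngII and 3.29 to 4.35 in WT sham. The 12 gut epithelium markers were at 1.83 to 4.16 in KO AngII and −0.00624 to 1.58 in WT sham, without overlap. Exocrine pancreas markers varied widely, over 2.05 to 12.0 in KO AngII and 1.37 to 11.4 in WT sham. Neutrophil markers were at −0.0808 to 1.54 in KO AngII and −0.957 to −0.376 in WT sham, without overlap. By edgeR 0 genes of these 6 lists were called. At an unadjusted p below 0.05 there were 11 of 11 B lymphocyte, 11 of 12 T lymphocyte, 12 of 14 macrophage, 7 of 12 gut, 0 of 12 pancreas and 3 of 6 neutrophil markers, against 19.1% of all genes tested. DESeq2 called 8, 9, 7, 3, 0 and 2 of them, against 7.98% of all genes it tested in either direction. Schwann cell and neuron markers had a median difference of −0.50, KO AngII minus WT sham on the log2 scale, and 3 of 12 were positive. Their list level had a median of 4.07 over the KO AngII and 4.37 over the WT sham libraries, which overlapped, with 0 called by edgeR, 7 at an unadjusted p below 0.05 and 4 called lower by DESeq2. Of 10 pericyte markers, edgeR called 1 lower, which was Notch3, and DESeq2 called 3 lower. The pericyte list level was 5.95 to 6.18 in KO AngII and 6.08 to 6.19 in WT sham, with a median difference of −0.16. Their part in the results below was not tested, except where a value without the libraries concerned is given.

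Of 17513 genes tested, 124 were called (0.708%), of which 80 were higher in KO AngII (0.457% of genes tested) and 44 were lower (0.251%). A gene is called here when its edgeR quasi-likelihood p, Benjamini-Hochberg adjusted over all genes, is below 0.05. The genes that rose were led by mitotic genes and matrix genes. Those that fell included Notch3, the potassium channel gene Kcna2 and the mineralocorticoid receptor gene Nr3c2. Among the called genes, 63 rose and 10 fell by at least 2-fold. All 124 called genes had groups that did not overlap, a pattern that 6.90% of all genes tested showed in either direction. The median log2 difference over all genes was 0.01. In bulk tissue, fewer cells of a type and less RNA per cell cannot be told apart, here and in what follows.

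The counts rest on the whole set of libraries. A fit of the 9 libraries alone called 15 genes higher and 0 lower, and scaling by library size alone called 65 higher and 70 lower, so 48.1% of its called genes were higher, against 64.5% with TMM factors. Leaving out 1 library moved the count of higher genes by over 1.5 times for KO AngII 1 and 2 (50 each), WT sham 1 (51), 2 (23), 3 (30) and 4 (22). It moved that of lower genes for KO AngII 1 (15) and 2 (19), WT AngII 1 (22), 3 (21) and 4 (18), and WT sham 2 (0), 3 (5) and 4 (1). Of 61 called genes named here besides Sphk1, 12 kept their call whichever single library was left out, and all 12 were higher genes: Cdk1, Ckap2l, Col12a1, Foxm1, Igfbp2, Iqgap3, Lrp8, Ltbp2, Postn, Prc1, Psrc1 and Ube2c. None of the 23 named lower genes did so. All 61 kept their direction in the alternatives that gave a value, 27 for each gene but Chil3 and Vtcn1, which did not pass the stricter filter and had 26.

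**Figure D1:**
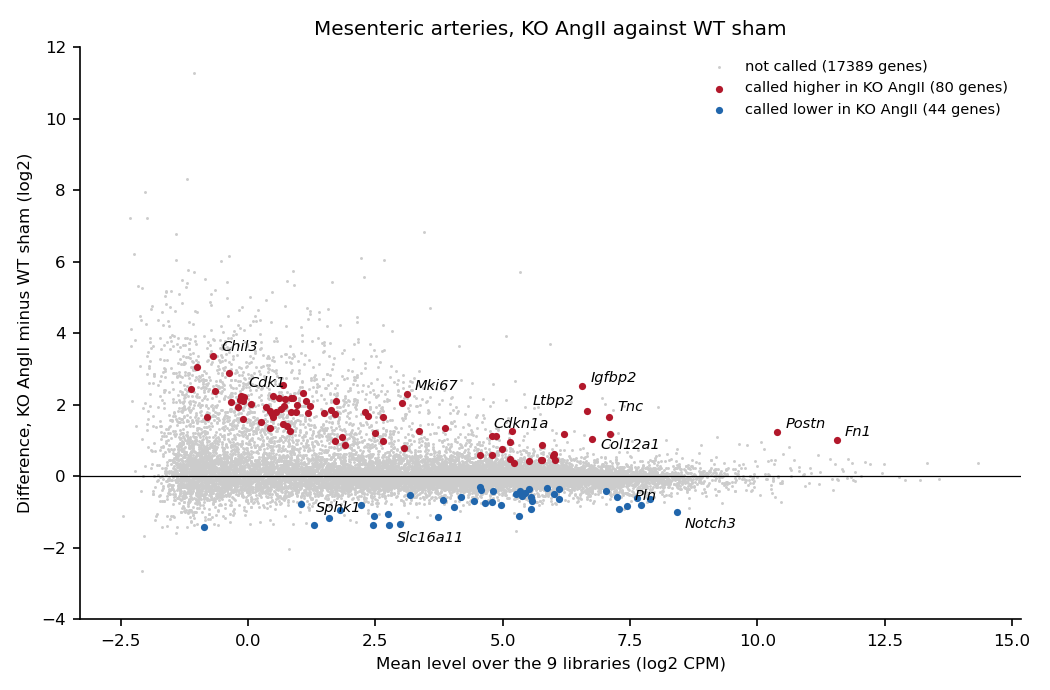
Each point is 1 of 17513 genes, with its mean level over the 9 libraries (log2 CPM) on the x axis and its difference, KO AngII minus WT sham (log2), on the y axis. Red points are the 80 genes called higher, blue points the 44 called lower and grey points the rest; many grey points lie farther from 0 than called genes at low levels.

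The targeted gene Sphk1 (ENSMUSG00000061878) was examined in every library first. It stood at 2.89, 4.76, 4.94, 3.26 and 3.74 CPM in KO AngII replicates 1 to 5, against 9.42, 7.43, 9.39 and 8.07 CPM in WT sham. All 5 deleted libraries lay below all 4 sham libraries, as the genotype labels say. Sphk1 fell to 3.92 ± 0.904 CPM in KO AngII, against 8.58 ± 0.994 CPM in WT sham (mean ± SD, n = 5 and 4). The log2 difference was −1.13 ± 0.19 (SE; edgeR adjusted p = 0.0227), and the exact two-sided permutation p of 0.00794 is the smallest that 5 against 4 libraries allow. The adjusted p was 0.0645 in the fit of the 9 libraries alone. It was 0.0514 without KO AngII 1, and 0.0571, 0.0751, 0.0839 and 0.0866 without WT sham 1, 2, 3 or 4. WT AngII mesenteric arteries held 13.9 ± 3.28 CPM. Which exons Cre removes is not known here, so counts over the whole gene may include exons that stay.

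Of the 17 tested genes of sphingosine-1-phosphate handling (kinases, phosphatases, the lyase, transporters and receptors), Sphk1 was the only one called. The list's median difference was 0.06, against 0.01 over all genes. Sphk2, the other sphingosine kinase, was at 28.9 ± 1.76 CPM in KO AngII and 31.9 ± 3.46 CPM in WT sham (log2 difference −0.14, edgeR adjusted p = 0.35).

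Genes of mitosis made up the largest group that rose. Of 36 mitosis genes tested, 26 rose in KO AngII mesenteric arteries, 0 fell and all 36 had a positive difference, with a median of 1.79 on the log2 scale. For 32 of them every KO AngII library lay above every WT sham library, which held for 3.22% of all genes tested. The mean log2 CPM of the list was 2.03, 2.28, 2.66, 1.54 and 1.66 in KO AngII replicates 1 to 5 and 0.375, 0.500, 0.381 and 0.527 in WT sham. All deleted libraries were thus above all sham libraries by more than 1 log2 unit. In WT AngII the list was at 2.00 to 2.21. The list was written with earlier results of these data known, so its direction is not independent evidence.

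Cyclin B1 and its kinase drive entry into mitosis. Ccnb1 was at 2.89, 4.43, 5.70, 2.35 and 2.19 CPM in KO AngII and at 0.390, 1.03, 0.567 and 0.427 CPM in WT sham, and rose by 2.53 ± 0.37 (log2 ± SE, edgeR adjusted p = 0.0113). Cdk1 was at 3.19, 5.58, 6.68, 2.48 and 3.40 CPM in KO AngII and at 0.744, 1.07, 0.944 and 0.659 CPM in WT sham, a rise of 2.32 ± 0.31 (edgeR adjusted p = 0.00767). For both genes the lowest deleted library held over 2 times the CPM of the highest sham library. Ccnb2 rose by 1.79 and Ccna2, the cyclin of S and G2 phases, by 1.78.

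The proliferation marker Mki67 was at 15, 15.6, 41.6, 10.3 and 11.6 CPM in KO AngII, against 3.72, 3.69, 3.49 and 4.42 CPM in WT sham (log2 difference 2.29 ± 0.37, edgeR adjusted p = 0.0198). KO AngII 3 was the highest, yet the other 4 deleted libraries were also above every sham library. Top2a, the topoisomerase that untangles chromosomes, was at 14.5, 18.6, 28.2, 8.76 and 9.33 CPM in KO AngII and at 3.83, 3.35, 4.58 and 3.65 CPM in WT sham (2.04 ± 0.32, edgeR adjusted p = 0.0168). Its deleted libraries were again all above its sham libraries, with KO AngII 3 highest.

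Ube2c, a ubiquitin-conjugating enzyme that works with the anaphase-promoting complex, rose by 2.18 ± 0.28 (edgeR adjusted p = 0.00587). It was at 3.51 ± 1.13 CPM in KO AngII and 0.766 ± 0.149 CPM in WT sham. Prc1, a microtubule bundling protein of the dividing cell's midzone, rose by 1.68 ± 0.19. It was at 8.43, 11.6, 9.20, 7.19 and 6.79 CPM in KO AngII and at 2.80, 3.20, 1.89 and 2.91 CPM in WT sham (edgeR adjusted p = 0.0043). Foxm1, a transcription factor of G2 and M phase genes, was not in the list and rose by 1.10 ± 0.14, to 4.97 ± 0.77 CPM in KO AngII against 2.32 ± 0.0932 CPM in WT sham. List members that also rose were the kinase Aurka (1.40, as log2 differences), the kinesin Kif11 (1.75), the spindle protein Ckap2l (1.95) and the scaffold Iqgap3 (2.11). Psrc1, a spindle protein that was not in the list, rose by 2.10 ± 0.25, to 6.24 ± 1.65 CPM in KO AngII against 1.45 ± 0.182 CPM in WT sham.

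Lymphocyte markers and mitotic genes were both highest in KO AngII 3. KO AngII 2 and 4 had B lymphocyte marker levels of 1.93 and 0.918, against 0.736 to 1.69 in WT sham. Their macrophage marker levels were 5.22 and 3.93, against 3.29 to 4.35 in WT sham. Their mitosis list levels were 2.28 and 1.54, above every sham library. The part of macrophages in these levels was not tested. Without the 4 mesenteric libraries whose B lymphocyte markers exceeded 3 log2 CPM (KO AngII 1, 3 and 5 and WT AngII 1), the mitosis median was 1.70 and 6 members were called, with 2 deleted libraries left. With the lymphocyte marker level as a covariate, 16 members were called and the median was 1.57. The count was 26 without KO AngII 3 and WT AngII 1, 5 in the fit of the 9 libraries alone, and 12, 14 and 11 without WT sham 2, 3 or 4.

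**Figure D2:**
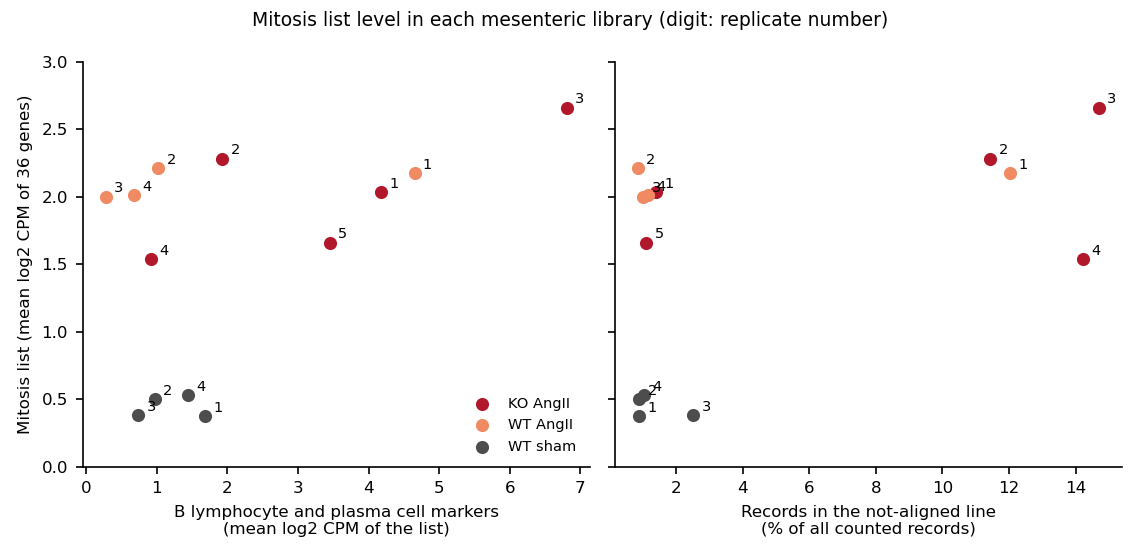
Each point is 1 mesenteric library, numbered by replicate and coloured by group, with the mean log2 CPM of the 36 mitosis genes on the y axis and, on the x axes, the mean log2 CPM of the B lymphocyte markers (left) and the percentage of records in the not-aligned line (right). The KO AngII libraries lie between 1.54 and 2.66 on the y axis, at low and at high values of either x axis; the WT sham libraries lie between 0.375 and 0.527 and at low x values only, 0.736 to 1.69 for the markers and 0.894 to 2.52% for the records.

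Promoters of mitotic genes are known for CCAAT boxes, bound by NF-Y, and for the cell cycle genes homology region (CHR), bound by the DREAM and MuvB complexes. Promoter windows of 300 bases (250 before to 50 after the RefSeq start, GRCm38.p6) were found for 31 of the 36 mitosis genes. Both strands were searched for CCAAT and for the CHR letters, which are TTTGAA in the first form and TTCGAA in the other. A CCAAT box may overlap a CCAAT box of the opposite strand. A CCAAT box was present in 24 of the 31 windows (77.4%), a CHR match in 26 (83.9%) and both in 22 (71.0%). Over all 27025 RefSeq windows these shares were 37.9, 19.4 and 7.70%. Of the 26 members that rose, 22 had a window and 16 of these (72.7%) held both motifs. The stretches from 120 bases before to 30 bases after the start are given for 6 of them, with CCAAT boxes and CHR matches in capitals, to show how the motifs sit in genes whose values stand above.
Cdk1, chr10:69352883-69353032, minus strand: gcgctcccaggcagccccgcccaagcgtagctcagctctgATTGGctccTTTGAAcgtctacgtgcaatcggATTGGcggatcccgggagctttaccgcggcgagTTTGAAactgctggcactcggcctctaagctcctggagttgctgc
Ccnb1, chr13:100786457-100786606, minus strand: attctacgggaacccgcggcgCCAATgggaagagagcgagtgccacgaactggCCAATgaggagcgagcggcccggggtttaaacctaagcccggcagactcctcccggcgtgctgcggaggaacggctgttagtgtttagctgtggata
Ccnb2, chr9:70421525-70421674, minus strand: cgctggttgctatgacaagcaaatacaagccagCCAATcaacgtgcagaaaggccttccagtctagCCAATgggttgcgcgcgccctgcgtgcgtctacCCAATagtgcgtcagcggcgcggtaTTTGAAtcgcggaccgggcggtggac
Top2a, chr11:99024160-99024309, minus strand: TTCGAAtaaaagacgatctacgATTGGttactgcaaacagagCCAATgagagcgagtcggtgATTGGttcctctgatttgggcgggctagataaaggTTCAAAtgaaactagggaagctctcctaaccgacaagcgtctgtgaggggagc
Ube2c, chr2:164769809-164769958, plus strand: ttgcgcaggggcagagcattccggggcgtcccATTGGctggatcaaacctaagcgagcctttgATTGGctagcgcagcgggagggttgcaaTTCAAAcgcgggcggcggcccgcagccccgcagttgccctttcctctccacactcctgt
Prc1, chr7:80294331-80294480, plus strand: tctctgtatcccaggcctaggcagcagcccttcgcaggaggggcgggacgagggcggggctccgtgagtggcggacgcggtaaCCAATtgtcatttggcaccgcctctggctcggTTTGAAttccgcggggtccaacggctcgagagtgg
Positions are counted from the RefSeq start and give the first base of the match. In the stretch of Cdk1 the CCAAT boxes were at −80 and −48 and the CHR matches at −71 and −15. That of Ccnb2 held CCAAT boxes at −87, −54 and −21 and a CHR match at 5. Prc1 held 1 of each, at −37 and −5. The window of Ccnb1, the gene with the largest rise of the list, held 2 CCAAT boxes and no match to these CHR letters. A match is a description of the letters and not of binding.

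Genes of DNA replication and the G1/S transition were not called. By edgeR 0 of the 30 tested passed, 27 had a positive difference, and the median was 0.46 on the log2 scale. At an unadjusted p below 0.05 there were 13, against 19.1% of all genes. DESeq2 called 9, against 5.21% of all genes called higher by it, and limma voom 5, against 2.74% of all genes called by it in either direction, and these calls were all higher. Without KO AngII 3 edgeR called 2. Of the 30, 9 had deleted libraries all above the sham libraries, a pattern of 3.22% of all genes. Tk1, thymidine kinase 1, was at 3.15, 2.68, 11.5, 2.79 and 3.01 CPM in KO AngII and at 1.17, 1.07, 1.09 and 1.32 CPM in WT sham (log2 difference 1.99 ± 0.44, edgeR adjusted p = 0.0612). KO AngII 3 held the highest value by far.

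Among 20 inhibitors of the cell cycle and p53 targets, Cdkn1a was the only one called. Cdkn1a encodes p21, which blocks cyclin-dependent kinases. It was at 114, 115, 66.2, 115 and 129 CPM in KO AngII and at 48.3, 45.9, 57.5 and 40.5 CPM in WT sham, with KO AngII 3 the lowest deleted library and still above all sham libraries. The rise was 1.17 ± 0.17 (edgeR adjusted p = 0.0109), and the call was lost without WT sham 2 or 4 and in the fit of the 9 libraries. In WT AngII it was at 66.2 ± 5.46 CPM. KO AngII minus WT AngII was 0.70 with an edgeR adjusted p of 0.798. The list's mean log2 CPM was 4.16 to 4.33 in KO AngII, 3.88 to 4.01 in WT AngII and 3.82 to 3.99 in WT sham, so the deleted libraries lay above both other groups. Members not called but without overlap between KO AngII and WT sham included the p53 target Ccng1 (0.39, adjusted p = 0.0631), the stress cytokine Gdf15 (1.57, adjusted p = 0.0819), the stress protein Sesn2 (0.58, adjusted p = 0.114) and Trp53inp1 (0.54, adjusted p = 0.134; all by edgeR). They were 4 of 7 members above without overlap, a pattern of 3.22% of all genes tested.

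Matrix genes that rose belonged to several lists, with a few members in each. Of 16 fibrillar and fibril-associated collagens, Col12a1 was called higher. Of 20 matricellular genes 3 were, Postn, Tnc and Fn1. Of 20 genes of elastic fibres and crosslinking 3 were, Ltbp2, Loxl2 and Loxl4. Of 16 genes of collagen maturation 1 was (P4ha3), and 1 of 24 matrix proteases and inhibitors (Timp1). In all, 0 members of these 5 lists were lower. Over all genes tested, 0.457% were called higher and 0.251% lower. The medians were 0.29, 0.41, 0.20, 0.08 and 0.28 in that order, against 0.01 over all genes. At an unadjusted p below 0.05 there were 8, 9, 6, 3 and 11 members, against 19.1% of all genes. The share in collagen maturation (3 of 16) was near that of all genes.

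Col12a1 encodes collagen XII, which links collagen fibrils to their surroundings. It was at 159, 156, 132, 150 and 144 CPM in KO AngII, against 79.7, 72.9, 63.6 and 70.7 CPM in WT sham. The groups were tight and far apart, and the rise of 1.05 ± 0.094 had an edgeR adjusted p of 0.00105, one of the 2 smallest of the comparison. The main fibrillar collagens were not called: Col1a1 was at 1162 ± 312 CPM in KO AngII and 866 ± 227 CPM in WT sham (adjusted p = 0.266), and Col3a1 at 2884 ± 931 and 1904 ± 296 CPM (edgeR adjusted p = 0.162). P4ha3, a subunit of collagen prolyl 4-hydroxylase, rose by 0.77 ± 0.16, to 10.6 ± 1.99 CPM in KO AngII against 6.21 ± 0.207 CPM in WT sham (edgeR adjusted p = 0.0478). Its call was lost without any single library other than KO AngII 3.

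Ltbp2 is a microfibril protein of the family named latent TGF-beta binding proteins. It was at 169, 168, 217, 151 and 183 CPM in KO AngII and at 46.7, 51.8, 45.1 and 58.4 CPM in WT sham. It rose by 1.81 ± 0.17 (edgeR adjusted p = 0.00105), with every deleted library above 150 and every sham library below 60 CPM. The lysyl oxidases Loxl2 and Loxl4, which crosslink collagen and elastin, rose by 1.18 ± 0.18 and 0.98 ± 0.20. Loxl2 was at 201 ± 33.7 CPM in KO AngII and 88.6 ± 24.1 CPM in WT sham. The count of elastic fibre genes called was 1 without WT sham 2 or 4.

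Postn encodes periostin, a matricellular protein of wound repair. It was at 2500, 1713, 1645, 1871 and 2180 CPM in KO AngII and at 853, 888, 664 and 963 CPM in WT sham (1.24 ± 0.16, edgeR adjusted p = 0.00589). Tenascin C (Tnc) was at 168, 170, 366, 284 and 173 CPM in KO AngII, against 94.3, 73.1, 71.3 and 58.9 CPM in WT sham (1.64 ± 0.27, edgeR adjusted p = 0.0203). KO AngII 3 and 4 were high for Tnc, and no deleted library reached down to the sham range. Fibronectin (Fn1) rose by 1.01 ± 0.20, to 4175 ± 723 CPM in KO AngII against 2077 ± 460 CPM in WT sham (edgeR adjusted p = 0.0427). The metalloproteinase inhibitor Timp1 rose by 1.27 ± 0.25, to 15.6 ± 6.06 CPM in KO AngII against 6.46 ± 1.22 CPM in WT sham. The call of Timp1 was lost without KO AngII 1, any WT AngII or any WT sham library, and that of Fn1 without any library other than KO AngII 3 and WT AngII 2. The matricellular count was 7 without KO AngII 3 and 1 without WT sham 2, 3 or 4.

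**Figure D3:**
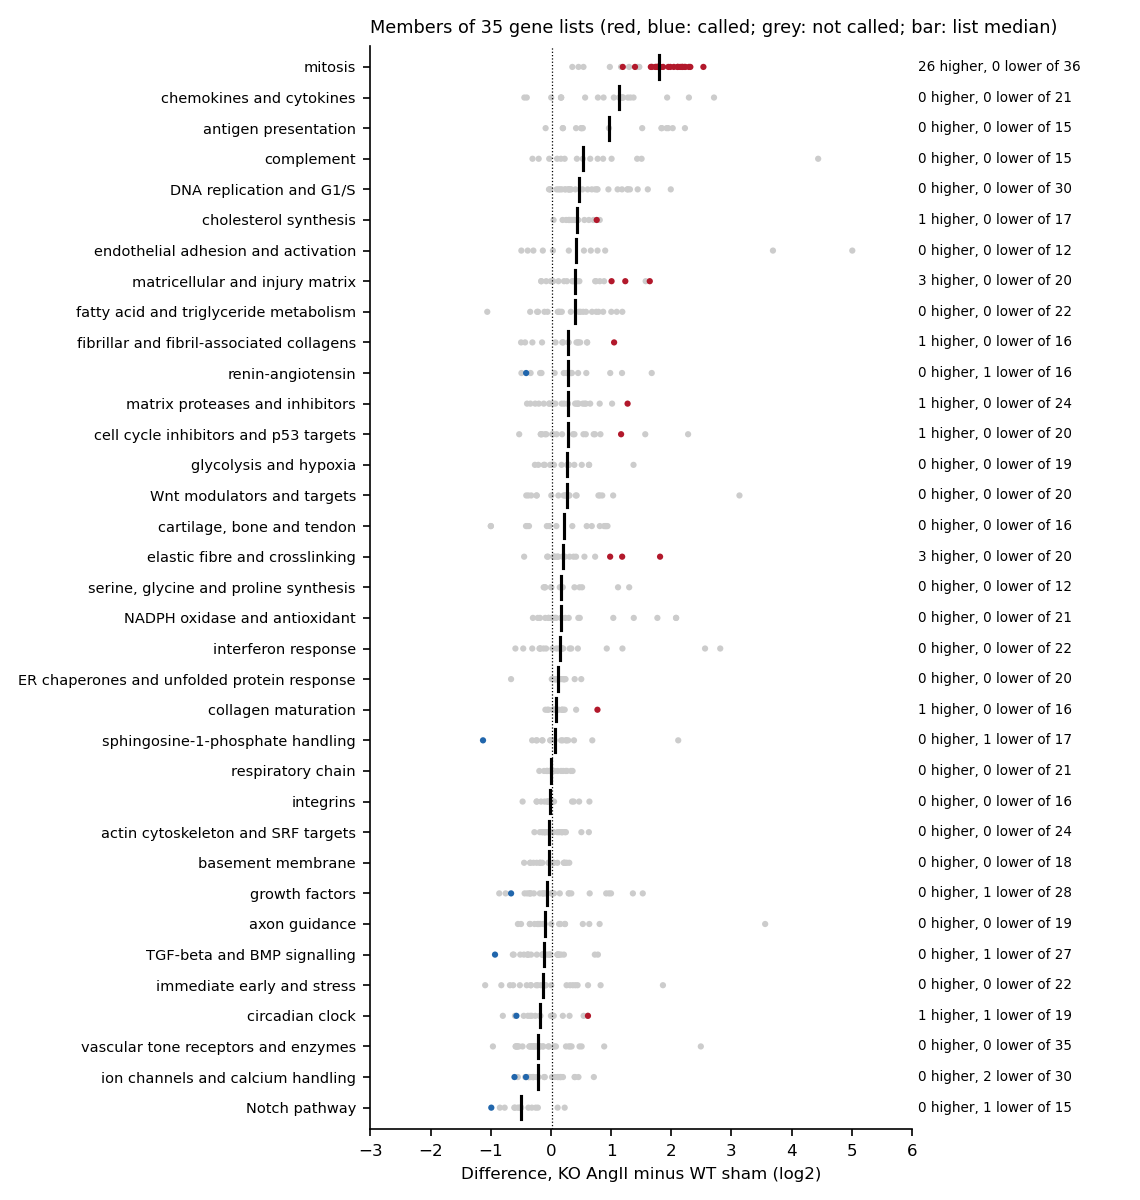
Each row is 1 of 35 gene lists, ordered by median, with 1 point per member tested at its difference, KO AngII minus WT sham (log2). Red and blue points are called higher and lower, grey points not called, black bars the list medians and the dotted line the median of all genes; the mitosis list has the highest median (1.79) and the Notch pathway the lowest (−0.50).

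Outside these lists, Igfbp2 had the largest rise among called genes with a mean of at least 1 log2 CPM. Igfbp2, a secreted binding protein of insulin-like growth factors, was at 371, 178, 140, 164 and 219 CPM in KO AngII and at 46.6, 35.2, 35.7 and 31.2 CPM in WT sham. It rose by 2.53 ± 0.32 (edgeR adjusted p = 0.00587), with KO AngII 1 the highest library. Lrp8, a receptor of the low-density lipoprotein receptor family, was at 5.28, 4.24, 6.34, 6.18 and 5.03 CPM in KO AngII and at 1.31, 1.68, 1.18 and 1.78 CPM in WT sham. Its rise of 1.86 ± 0.19 had an edgeR adjusted p of 0.00196. Both genes, with Ckap2l, Col12a1, Ltbp2 and Prc1, were called in all 27 alternatives.

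Other surface and secreted proteins rose too. Cd109, a TGF-beta co-receptor, rose by 1.13 to 42.1 ± 9.87 CPM, against 19.2 ± 1.81 CPM in WT sham. Cdh11, a cadherin of mesenchymal cells, rose by 0.96 to 48.3 ± 14.0 CPM, against 24.8 ± 3.58 CPM. Pamr1, a secreted protein of regenerating muscle, rose by 1.11 to 39.7 ± 9.44 CPM, against 18.3 ± 2.93 CPM (edgeR adjusted p from 0.0109 to 0.0321 for these genes).

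Enzymes that rose included Gcnt4, which branches mucin-type sugar chains (1.66 ± 0.26), and Dio2, which activates thyroid hormone (1.26 ± 0.23). Dio2 was at 54.9 ± 13.6 CPM in KO AngII and 22.8 ± 6.24 CPM in WT sham. It is also a brown adipocyte marker and was the only one of the 5 tested that was called. That list was at 1.32 to 2.85 mean log2 CPM in KO AngII and 1.66 to 1.91 in WT sham, with a median difference of 0.75 and 4 of 5 positive. With the adipocyte marker level as a covariate Dio2 was not called (edgeR adjusted p = 0.0529). All 17 cholesterol synthesis genes tested had a positive difference, with a median of 0.44, against 0.01 over all genes. Among muscle proteins, Myoz2, a calcineurin-binding Z-disc protein, rose by 2.37, and Alpk2, an alpha kinase of muscle, by 2.03. Both were low throughout, at 1.21 ± 0.459 and 1.83 ± 0.597 CPM in KO AngII and 0.228 ± 0.159 and 0.444 ± 0.134 CPM in WT sham. Larger rises were found in further genes of low level. Chil3, a chitinase-like protein of macrophages, rose by 3.37, the immune checkpoint ligand Vtcn1 by 3.06 and the serine protease Prss30 by 2.87. Chil3 was at 4.51 CPM in KO AngII 3 and 0.731 to 1.49 CPM in the other deleted libraries, against 0.0472 to 0.354 CPM in WT sham. Macrophage markers moved with Chil3 in KO AngII 3, and their part was not tested.

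Notch3, the Notch receptor of vascular smooth muscle and pericytes, was the most highly expressed gene by CPM among those that fell. It was at 224, 270, 222, 227 and 336 CPM in KO AngII and at 353, 574, 657 and 451 CPM in WT sham. The highest deleted library came close to the lowest sham library without reaching it. Notch3 fell to 256 ± 49.1 CPM in KO AngII, against 509 ± 134 CPM in WT sham (log2 difference −0.99 ± 0.19, edgeR adjusted p = 0.0371). It was not called in the fit of the 9 libraries, nor without any 1 of KO AngII 1 to 4, WT AngII 1, 3 and 4, and WT sham 2, 3 and 4.

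Of the 15 Notch pathway genes tested, Notch3 was the only one called, and 13 had a negative difference. The list's median was −0.50, against 0.01 over all genes, and 4 members had deleted libraries all below the sham libraries, a pattern of 3.68% of all genes tested. The ligand Dll1 was at 33.3 ± 6.16 CPM in KO AngII and 59.9 ± 13.2 CPM in WT sham (−0.85, edgeR adjusted p = 0.0526). Nrarp, a feedback inhibitor that Notch itself induces, differed by −0.77 (adjusted p = 0.0918), and the target Heyl by −0.60 (edgeR adjusted p = 0.161). The list's mean log2 CPM was 5.53 to 6.04 in KO AngII, 5.76 to 6.20 in WT AngII and 6.04 to 6.46 in WT sham.

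Of 30 genes of ion channels and calcium handling, 12 had a positive difference, with a list median of −0.21. At an unadjusted p below 0.05 there were 7, against 19.1% of all genes. Of the 30, 2 were called lower and 0 higher, against 0.251 and 0.457% of all genes tested. Kcna2, the voltage-gated potassium channel Kv1.2, was at 159, 151, 178, 175 and 162 CPM in KO AngII, against 206, 239, 287 and 272 CPM in WT sham (−0.61 ± 0.11, edgeR adjusted p = 0.0364). Stim1, the calcium sensor of the sarcoplasmic reticulum that opens store-operated channels, was at 115 ± 10.4 CPM in KO AngII and 154 ± 14.1 CPM in WT sham (−0.41 ± 0.084, edgeR adjusted p = 0.0485). Neither gene's groups overlapped. The count was 0 without any 1 of KO AngII 1, 2 or 5, WT AngII 3 or WT sham 2, 3 or 4, and 1 without KO AngII 3 or WT AngII 1, 2 or 4.

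Outside this list, Pln, Atp1b2 and Myom3 fell, which were not tested as a group. Pln, phospholamban, an inhibitor of the calcium pump of the sarcoplasmic reticulum, was at 146, 143, 95.7, 150 and 140 CPM in KO AngII and at 246, 298, 182 and 242 CPM in WT sham (−0.84 ± 0.16, edgeR adjusted p = 0.0366). KO AngII 3 was the lowest library and the other 4 were close together. Atp1b2, a beta subunit of the sodium pump, fell to 166 ± 31.5 CPM in KO AngII, against 291 ± 39.1 CPM in WT sham (−0.81 ± 0.14). Myom3, a myomesin of the sarcomeric M-band, fell to 9.47 ± 2.20 CPM, against 20.8 ± 2.0 CPM in WT sham (−1.14 ± 0.18, edgeR adjusted p = 0.0161).

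None of the general contractile genes was called. Of 16 smooth muscle markers, 0 were called by edgeR, 1 by DESeq2 (higher) and 0 by limma voom, with 2 at an unadjusted p below 0.05 and a median of 0.02. Of 35 receptors and enzymes of vascular tone, 0 were called by edgeR, with 12 at an unadjusted p below 0.05, a median of −0.21 and 4 below without overlap. Over all genes 19.1% were at an unadjusted p below 0.05 and 3.68% below without overlap. DESeq2 called 2 higher and 5 lower, against 5.21 and 2.78% of all genes, and limma voom 2 and 3, against 2.74% of all genes in either direction. Among the 4 without overlap were the alpha-1D adrenergic receptor Adra1d (−0.96, adjusted p = 0.0612), the endothelin receptor Ednra (−0.53, adjusted p = 0.0752) and the guanylate cyclase subunit Gucy1a1 (−0.56, edgeR adjusted p = 0.0752).

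**Figure D4:**
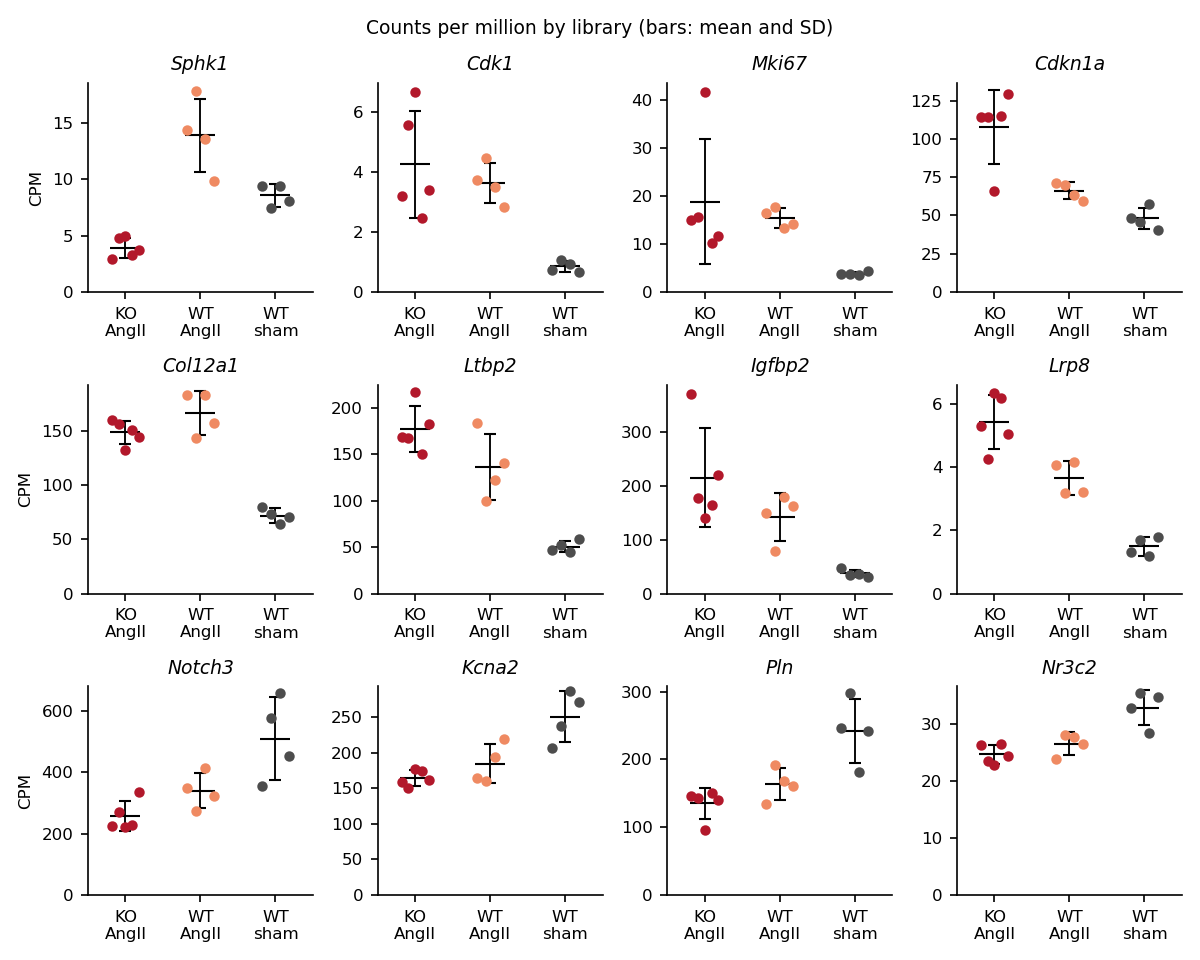
Each panel plots the CPM of 1 gene in every mesenteric library, with KO AngII at the left, WT AngII in the middle and WT sham at the right, and bars for the mean and SD. Sphk1 and the lower row (Notch3, Kcna2, Pln, Nr3c2) have deleted libraries below all sham libraries, and the other 7 genes have them above, for example 132 to 159 CPM against 63.6 to 79.7 CPM for Col12a1.

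Renin-angiotensin genes had a median difference of 0.29, against 0.01 over all genes, and 11 of the 16 tested were positive. Of these 16, 0 were called higher and 1 was called lower, against 0.457 and 0.251% of all genes tested. This gene, Nr3c2, the mineralocorticoid receptor, was at 26.2, 23.4, 22.8, 26.5 and 24.4 CPM in KO AngII and at 32.8, 35.3, 28.4 and 34.7 CPM in WT sham (−0.41 ± 0.080, edgeR adjusted p = 0.0419). Rgs2, a brake on AngII receptor signalling, did not overlap between groups either, at 76.4 to 106 CPM in KO AngII and 107 to 147 CPM in WT sham (−0.49, edgeR adjusted p = 0.0633). Corin, the protease that processes natriuretic peptides, fell to 36.1 ± 6.64 CPM, against 67.9 ± 15.9 CPM in WT sham (−0.91 ± 0.16).

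Sox7, Bcl6b and Arhgef15, genes known from endothelium that were picked from the called genes after their values were seen, fell, and none of the endothelial markers was called. Sox7, an endothelial transcription factor, was at 23.5, 22.1, 18.8, 13.1 and 22.5 CPM in KO AngII and at 33.2, 36.8, 31.5 and 34.0 CPM in WT sham (−0.76 ± 0.15). Its groups did not overlap. Bcl6b, another one, fell to 22.2 ± 4.37 CPM, against 36.8 ± 4.87 CPM (−0.73 ± 0.14). The guanine nucleotide exchange factor Arhgef15 fell by 0.63 and the mural cell ligand of Tek, Angpt1, by 0.66 (edgeR adjusted p from 0.0321 to 0.0485 for these 4). Of 12 endothelial markers, 0 were called by edgeR, with 6 at an unadjusted p below 0.05, a median of −0.42 and 5 below without overlap, against 19.1% of all genes at that p and 3.68% below without overlap. DESeq2 called 4 lower, against 2.78% of all genes, and limma voom 2. Pecam1 was at 1102 ± 253 CPM in KO AngII and 1642 ± 142 CPM in WT sham (adjusted p = 0.137), and Tek at 150 ± 28.5 and 212 ± 7.0 CPM (edgeR adjusted p = 0.0899). The endothelial list was at 6.80 to 7.52 log2 CPM in KO AngII and 7.42 to 7.75 in WT sham. Whether Sox7, Bcl6b and Arhgef15 followed the amount of endothelium was not tested.

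Of 19 clock genes tested, 1 was called higher and 1 lower, with a list median of −0.18. Without overlap between groups, 2 were higher and 4 lower, patterns of 3.22 and 3.68% of all genes. Cry2, a repressor of the clock, was at 43.0, 36.5, 33.4, 43.9 and 40.1 CPM in KO AngII and at 53.2, 63.6, 61.7 and 56.2 CPM in WT sham (−0.57 ± 0.10, edgeR adjusted p = 0.0245). Rora, a nuclear receptor that activates Bmal1, rose by 0.61 ± 0.11, to 78.0 ± 11.4 CPM against 50.9 ± 5.41 CPM in WT sham (edgeR adjusted p = 0.0257). Cry2 lost its call in 9 and Rora in 10 of 27 alternatives. The output gene Dbp was at 41.3 ± 8.82 CPM in KO AngII and 71.8 ± 12.3 CPM in WT sham (−0.80, edgeR adjusted p = 0.0913). The time of day of collection is not known here.

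Among named genes, the largest falls by fold were in genes of low level. Slc16a11, a monocarboxylate transporter, was at 4.85, 4.09, 3.28, 4.00 and 6.19 CPM in KO AngII, against 8.78, 14.1, 13.5 and 10.4 CPM in WT sham (−1.38 ± 0.24, edgeR adjusted p = 0.0227). Etnk2, an ethanolamine kinase of phospholipid synthesis, fell by 1.38 ± 0.23, and Sctr, the secretin receptor, by 1.37 ± 0.22. Sctr was at 3.58 ± 0.714 CPM in KO AngII and 9.25 ± 1.96 CPM in WT sham. Ybx2, an RNA-binding protein known from germ cells, fell to 5.25 ± 1.30 CPM, against 13.4 ± 3.01 CPM. Nrip2, a nuclear receptor corepressor, fell by 1.12, to 28.9 ± 7.80 CPM against 62.8 ± 11.2 CPM in WT sham. Fign, a microtubule-severing enzyme, had the smallest adjusted p among lower genes, with 15.2 ± 1.37 CPM in KO AngII and 22.7 ± 0.489 CPM in WT sham (−0.58 ± 0.083, edgeR adjusted p = 0.0109). Ndrg2 fell to 198 ± 30.7 CPM, against 308 ± 36.5 CPM, and the cell adhesion gene Cadm2 to 38.6 ± 4.19 CPM, against 63.2 ± 10.8 CPM.

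WT AngII arteries show the infusion without the deletion. Both infused groups were compared with the same sham libraries, so their differences are not independent and are set side by side only. The median difference of the mitosis list was 1.79 for KO AngII and 1.82 for WT AngII, each against WT sham. For Col12a1 the differences were 1.05 and 1.21, for Ltbp2 1.81 and 1.44, for Igfbp2 2.53 and 1.93, and for Postn 1.24 and 1.17. The WT AngII differences of these 4 genes had edgeR adjusted p values of 0.000456, 0.00642, 0.0328 and 0.0154. For Notch3 the differences were −0.99 and −0.58, for Kcna2 −0.61 and −0.44, for Pln −0.84 and −0.57, and for Cdkn1a 1.17 and 0.46. None of these last 4 genes was called in WT AngII (edgeR adjusted p from 0.21 to 0.371). For none of these 8 genes did KO AngII differ from WT AngII by the edgeR test (adjusted p of 0.798 or more), which does not show that the 2 groups were alike. Sphk1 itself was lower in KO AngII than in WT AngII, by −1.83 on the log2 scale (edgeR adjusted p = 0.0101).

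The same contrast was then read in the aorta, in 1 model of all 26 libraries with the tissue difference as an interaction. In that model 4314 of 18520 genes tested (23.3%) were called in the aorta, in either direction. Of the 80 genes that rose in mesenteric arteries, 78 had a positive aortic difference and 74 were called higher in the aorta as well. Of the 44 that fell, 36 had a negative aortic difference and 21 were called lower. Whether the same mice gave both tissues is not known here.

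The mesenteric difference was itself called unlike the aortic one for 683 genes (3.69% of those tested), higher for 182 (0.983%) and lower for 501 (2.71%). Among the 80 mesenteric genes that rose, 5 had a tissue difference that was called, and 4 of these are described. Col12a1 rose less in mesenteric arteries (1.05) than in the aorta (2.44; tissue difference −1.39 ± 0.36, edgeR adjusted p = 0.0304), and so did Timp1 (1.27 and 2.72). Mapk6, an atypical MAP kinase, differed by 0.35 in mesenteric arteries, not called in this model (edgeR adjusted p = 0.0521), and by 0.94 in the aorta. For P4ha3 the differences were 0.77 in mesenteric arteries, not called in this model (adjusted p = 0.0928), and 4.25 in the aorta (tissue difference −3.48 ± 0.42, edgeR adjusted p = 5.5e-05). Its sham level was 5.99 CPM in mesenteric arteries and 0.640 CPM in the aorta.

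Among the 44 genes that fell, 8 had a tissue difference that was called. Notch3 fell in mesenteric arteries (−0.99) and was at 62.5 ± 6.21 CPM in KO AngII and 66.7 ± 7.15 CPM in WT sham aortas (−0.09; tissue difference −0.90 ± 0.23, edgeR adjusted p = 0.0274). Plekhh3 showed −0.82 in mesenteric arteries and −0.14 in the aorta. Sctr, Bcl6b and Cadm2 fell in mesenteric arteries (−1.37, −0.73 and −0.71 in this model) and rose in the aorta (1.70, 0.56 and 1.06). Their tissue differences were −3.07 ± 0.56, −1.29 ± 0.22 and −1.78 ± 0.40 (edgeR adjusted p from 0.00155 to 0.0137). Mean WT sham levels of Sctr, Bcl6b and Cadm2 were 0.415, 5.18 and 0.389 CPM in the aorta. In mesenteric arteries they were 8.92, 35.5 and 60.9 CPM. The aortic rises of Sctr and Cadm2 thus rest on low levels. Abcb1a and Angpt1, a drug efflux transporter and the Tek ligand, rose in the aorta (0.97 and 1.10) and had mesenteric differences of −0.37 and −0.66. The mesenteric differences of these last 2 genes were not called in this model (edgeR adjusted p = 0.222 and 0.191). The remaining one, the predicted gene Gm4876, had a tissue difference of 1.10 ± 0.24.

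Over all genes, the tissue difference was called with the smallest adjusted p for Ttc9 among lower and Scube3 among higher effects. Scube3, a secreted glycoprotein, was at 208 ± 45.6 CPM in KO AngII and 130 ± 17.3 CPM in WT sham mesenteric arteries, and at 265 ± 41.5 and 661 ± 34.4 CPM in KO AngII and WT sham aortas. The collagen-associated protein Cthrc1 was at 4.12 ± 1.66 CPM in KO AngII and 4.02 ± 0.970 CPM in WT sham mesenteric arteries, while KO AngII aortas held 58.8 ± 28.2 CPM and WT sham aortas 1.08 ± 0.469 CPM.

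**Figure D5:**
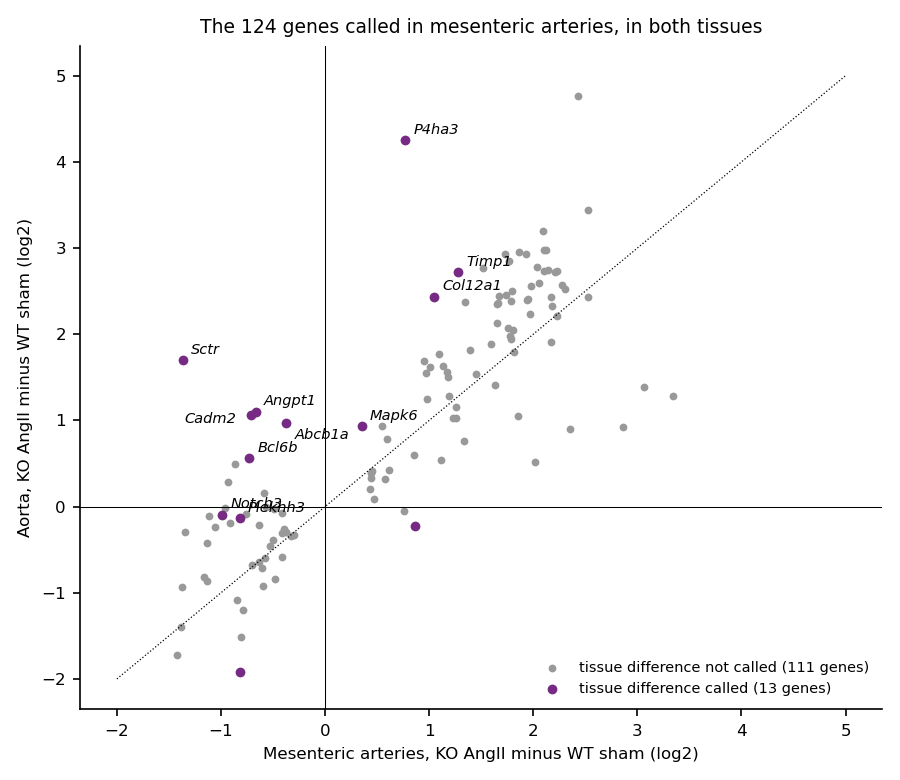
Each point is 1 of the 124 genes called in mesenteric arteries, with its mesenteric difference on the x axis and its aortic difference on the y axis (both KO AngII minus WT sham, log2, from the model of 26 libraries). Purple points are the 13 genes whose tissue difference was called and the dotted line marks equal differences; P4ha3, Timp1 and Col12a1 lie above the line, and Sctr, Bcl6b and Cadm2 lie at negative mesenteric and positive aortic values.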

How the data were processed

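RNA from mesenteric arteries and aortas was sequenced. The deposited files hold whole-number counts of reads per gene, one table per library, made by the authors with cutadapt, HISAT2 and HTSeq on GRCm39, per the submitters' processing notes. Versions, annotation release and strand setting are not stated there, so overlapping and antisense genes may share reads. The 5 HTSeq summary lines were left out of library sizes and tests. Of 55414 identifiers, 52081 had a symbol.

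The 13 mesenteric libraries were fitted together (edgeR 4.0.16, R 4.3.3; filterByExpr, TMM factors, robust quasi-likelihood F test), with KO AngII minus WT sham as the contrast and Benjamini-Hochberg adjustment over all genes. CPM use TMM-scaled library sizes, and log2 CPM in list levels have a prior count of 2. The tissue difference was an interaction over 26 libraries, so its CPM differ slightly. Each library was treated as 1 mouse. For 72.9% of genes the 95% interval of the difference lay within 2-fold either way. The fit was tested on simulated data with 200 changed genes. For the mesenteric contrast it recovered 26.9% of 1.5-fold, 61.2% of 2-fold and 84.8% of 4-fold changes. A gene that was not called may therefore still differ. DESeq2 1.42.0, limma 3.58.1 voom, other scalings, filters, marker covariates, a replicate block and left-out libraries were alternatives.

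Named genes were Sphk1, the 15 largest changes per direction among called genes with a mean of at least 1 log2 CPM, the 10 smallest adjusted p per direction, up to 4 called members per list, or up to 2 uncalled ones, and 6 genes per direction of the tissue difference. Further genes (the cyclins Ccnb1 and Ccnb2, Aurka, surface, muscle and endothelial genes such as Cd109, Myoz2 and Sox7, genes of low level such as Chil3, and uncalled list members such as Col1a1, Dll1, Gdf15 and Pecam1) were chosen after their values were seen. Some genes that the rule or the lists hold are not reported here. The comparison, the 52 lists and the rule were chosen with earlier results of these data known.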

Additional observations from a re-analysis of the deposited data

Results flagged for a closer look

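Among 80 named genes, 160 groups of 4 or 5 libraries were examined for 1 library far from the rest, and 8 were found, where chance gives about 1 in 20. KO AngII 3 was low for Cdkn1a (66.2 CPM, others 114 to 129), P4ha3 (7.32, others 10.7 to 12.2) and Pln (95.7, others 140 to 150), and high for Tk1 (11.5, others 2.68 to 3.15). KO AngII 4 was low for Dll1 (22.4 CPM, others 34.7 to 37.5) and KO AngII 5 for Alpk2 (0.86, others 1.82 to 2.43). WT sham 2 was low for P4ha3 (5.90 CPM, others 6.30 to 6.33) and high for Nrip2 (79.5, others 55.9 to 58.6).

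The effect of KO AngII against WT sham differed between the tissues by the interaction test, given as mesenteric minus aortic log2 difference. It was positive for Scube3 (2.00), Rhobtb1 (1.17), Lax1 (2.88), Tmem82 (2.04), Rasgrp2 (1.03) and Vstm2b (1.97). It was negative for Ttc9 (−3.83), Cpxm2 (−1.76), Cthrc1 (−5.72), Ccn4 (−1.99), Gal3st1 (−3.67) and P4ha3 (−3.48).

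Records in the not-aligned line, which no comparison uses, made up 11.4, 14.7 and 14.2% in KO AngII 2, 3 and 4, against 0.894 to 2.52% in WT sham.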

How the results depend on the processing

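Genes called higher and lower numbered 929 and 496 with DESeq2, 266 and 213 with limma voom, 15 and 0 with the 9 libraries alone, and 42 and 5 with the lymphocyte marker covariate. They numbered 270 and 19 without the libraries with over 10% not aligned, which kept 53 of the 80 higher and 7 of the 44 lower genes. The counts were 124 and 33 without KO AngII 3 and WT AngII 1. Without the 4 libraries with high B lymphocyte markers, a setting chosen after seeing the data, they were 31 and 3. Scaling by library size alone gave 65 and 70, and no low-count filter 63 and 27. With 1 library left out in turn the counts ranged from 22 to 120 higher and from 0 to 45 lower. The Sphk1 difference was −1.12 with the 9 libraries alone (adjusted p = 0.0645), −1.09 without the high B lymphocyte libraries (adjusted p = 0.127), and −1.22 to −1.04 with 1 library left out (all by edgeR). Fits with fewer libraries have fewer degrees of freedom; the cause of the other shifts was not tested.

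With the replicate number as a block, 19 genes were higher and 1 lower, and Sphk1 differed by −1.14 (edgeR adjusted p = 0.0923). The numbers did not pair the libraries: same-numbered deviations correlated at −0.173, 0.065, 0.128 and 0.132, only number 4 correlated best with its own number, and KO AngII 5 had no partner.

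Genes with a higher or lower mesenteric than aortic effect numbered 409 and 755 with DESeq2, 561 and 1027 with limma voom, 245 and 308 by library size alone, and 106 and 341 without a filter. With 1 library left out they ranged from 100 to 324 and from 377 to 579. The replicate block gave 146 and 428.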

Other observations

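Immune genes were not called as lists. All 14 macrophage markers had a positive difference, KO AngII minus WT sham, with a median of 1.68 on the log2 scale, and 12 were at an unadjusted p below 0.05, against 19.1% of all genes. Antigen presentation genes were at 5.52 to 8.47 mean log2 CPM in KO AngII and 5.52 to 6.18 in WT sham. Of these 15 genes edgeR called 0, with 7 at an unadjusted p below 0.05, and DESeq2 called 0. Chemokines and cytokines had a median of 1.13, with 0 of 21 called by edgeR, 9 at an unadjusted p below 0.05 and 2 called by DESeq2. Interferon response genes had a median of 0.15.

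The basement membrane list was at 7.47 to 8.08 mean log2 CPM in KO AngII and 7.80 to 7.95 in WT sham, with a median difference of −0.03. Endoplasmic reticulum chaperones had a median difference of 0.11, with 19 of 20 positive, and the respiratory chain one of 0.00. White adipocyte markers were at 4.21 to 7.06 in KO AngII and 4.26 to 6.28 in WT sham, and mesothelial markers at 0.537 to 4.11 and −0.380 to 2.74.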
